A study of Mus musculus with 6 samples.

Results

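Chromosome 19 carries Nfkb2, the gene for the p100 precursor of the NF-kB subunit p52, and 10 genes of its neighborhood were examined in dendritic cells grown from bone marrow (BMDCs) of WT and Nfkb2-/- mice. The 10 are Nolc1, Gbf1, Psd, Fbxl15, Cuedc2 and Mfsd13a, which lie next to Nfkb2 or close by, and Neurl1a, Gsto1, Gsto2 and Mxi1, which lie farther away but within 10 Mb. All 10 were measured, among 21849 genes tested. The first 6 are described as part of a larger set that was drawn by position alone, namely every tested gene within 0.5 Mb of Nfkb2. Neurl1a, Gsto1 and Mxi1 were chosen by their log2 fold change and adjusted p in the same 6 libraries, and Gsto2 because it stands beside Gsto1, so their values are a description and carry no test.

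RNA-seq libraries of polyadenylated RNA came from 3 WT and 3 Nfkb2-/- BMDC cultures, 6 in all. Bone marrow of femur and tibia was grown with GM-CSF and then with GM-CSF and IL-4, and the cells of both genotypes received no other stimulus. WT mice were C57BL/6, and the knockout is global, not limited to dendritic cells. The design of the knockout allele, the embryonic stem cell strain and the number of backcrosses are not given in the sources used here, nor are the age and sex of the mice.

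A targeted allele is inherited together with the DNA that flanks it. Genes close to the target can therefore keep the sequence of the embryonic stem cell strain, and their mRNA may differ between knockout and control mice for that reason, because the targeting construct disturbs neighboring transcription, or because the lost protein regulated them. Gene counts without allele information cannot tell these apart, and WT and Nfkb2-/- libraries may differ in all of them at once. Physical neighbors of Nfkb2 also overlap each other, which matters for reads near shared gene ends. The NF-kB family binds short GC-rich sites called kB sites, and the Nfkb2 gene is itself known to be induced by NF-kB.

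To show the DNA that the comparison concerns, the promoters of Nfkb2 and of the 4 genes among the 10 that passed the threshold in the genotype comparison were taken from RefSeq (GRCm38.p6). Each window runs from 250 bases before to 50 bases after an annotated start and is written 5′ to 3′. Matches to the kB consensus on either strand are in capitals. All 10 genes had at least 1 window, 15 in all, and for Nfkb2 and Mxi1 the first of 3 windows is printed. The windows are chr19:46304487-46304786 for Nfkb2, chr19:46356630-46356929 for Mfsd13a, chr19:47178570-47178869 for Neurl1a, chr19:47854723-47855022 for Gsto1 and chr19:53310256-53310555 for Mxi1, each on the plus strand.
Nfkb2: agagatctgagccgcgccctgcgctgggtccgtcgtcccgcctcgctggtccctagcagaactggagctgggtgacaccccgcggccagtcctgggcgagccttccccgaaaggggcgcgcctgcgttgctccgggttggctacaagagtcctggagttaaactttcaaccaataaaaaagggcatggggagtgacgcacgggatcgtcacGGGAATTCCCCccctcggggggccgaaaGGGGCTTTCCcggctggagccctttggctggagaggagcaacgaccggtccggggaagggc
Mfsd13a: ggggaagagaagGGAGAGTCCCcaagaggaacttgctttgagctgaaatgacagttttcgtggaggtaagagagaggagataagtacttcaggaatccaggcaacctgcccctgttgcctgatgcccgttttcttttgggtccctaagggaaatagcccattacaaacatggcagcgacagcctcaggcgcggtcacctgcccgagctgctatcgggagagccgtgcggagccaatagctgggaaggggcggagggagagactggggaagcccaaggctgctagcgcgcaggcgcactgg
Neurl1a: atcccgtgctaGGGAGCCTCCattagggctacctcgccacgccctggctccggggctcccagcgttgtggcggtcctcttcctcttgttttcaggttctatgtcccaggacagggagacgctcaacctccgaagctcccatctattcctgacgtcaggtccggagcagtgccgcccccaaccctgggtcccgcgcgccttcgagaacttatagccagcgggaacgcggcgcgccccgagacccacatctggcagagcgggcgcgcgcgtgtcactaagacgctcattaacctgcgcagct
Gsto1: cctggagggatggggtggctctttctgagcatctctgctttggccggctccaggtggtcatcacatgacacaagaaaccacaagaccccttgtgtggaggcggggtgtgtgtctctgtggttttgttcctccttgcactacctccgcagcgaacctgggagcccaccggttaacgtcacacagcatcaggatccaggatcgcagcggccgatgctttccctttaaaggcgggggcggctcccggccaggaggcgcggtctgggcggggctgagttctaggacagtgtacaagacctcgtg
Mxi1: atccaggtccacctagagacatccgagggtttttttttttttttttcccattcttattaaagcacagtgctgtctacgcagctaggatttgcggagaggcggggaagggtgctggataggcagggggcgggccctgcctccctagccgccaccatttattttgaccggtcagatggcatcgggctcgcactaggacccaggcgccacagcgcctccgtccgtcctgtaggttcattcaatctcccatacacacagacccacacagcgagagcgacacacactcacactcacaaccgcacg

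The kB consensus matched 2779 of 32851 mouse promoter windows of the same length (8.46%). In the Nfkb2 window it matched at 2 places, GGGAATTCCCC and GGGGCTTTCC, and the other Nfkb2 windows matched as well. Among the 10 genes it matched in a window of Mfsd13a, where the match GGAGAGTCCC begins at position -238 from the start, and of Neurl1a, where GGGAGCCTCC begins at position -239. Levels of these 2 genes differed in opposite directions between the genotypes, as given below. The Mfsd13a window lies inside the gene as annotated in GENCODE M21, which begins at 46341121. The DNA before that first base was not searched. No window of the other 8 genes held those letters. The E-box CACGTG, to which Myc, Max and Mxi1 proteins bind, was in 7.15% of all windows and in none of the 15. The core TGACNNNGC of the antioxidant response element, known from glutathione transferase genes, was in 12.4% of all windows. Among the 10 genes it was in windows of Mfsd13a and Mxi1, but not in those of Gsto1 or Gsto2. These matches are a description of the letters and not of binding.

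Nfkb2 itself (ENSMUSG00000025225, chromosome 19, 46304320 to 46312385, plus strand, GRCm38) was first checked against the genotype labels. Levels are given as CPM, the share of a library's counts that fell on the gene, expressed per 1000000 counts after scaling of library sizes with TMM. Nfkb2 mRNA was 215, 154 and 355 CPM in WT replicates 1 to 3 and 44.8, 32.3 and 32.6 CPM in Nfkb2-/- replicates 1 to 3. All 3 knockout libraries lay below all WT libraries, and the knockout libraries kept reads on the gene. The log2 fold change was -2.72 (SE 0.33, adjusted p = 0.0307). Adjusted p-values come from the quasi-likelihood test of edgeR, corrected over all genes by the Benjamini-Hochberg method, unless another tool is named. Gene counts do not show which exons these reads came from.

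Psd, Mfsd13a and Nolc1 were the genes, among the 6 of the 10 that lie within 0.5 Mb of Nfkb2, whose libraries separated by genotype, with Psd and Mfsd13a lower and Nolc1 higher in Nfkb2-/- BMDCs. Gbf1, Cuedc2 and Fbxl15 had overlapping libraries. A gene was called changed at an adjusted p under 0.05 together with a fold change over 1.2. Among all 21849 genes, 248 (1.14%) were called, with 99 (0.453%) above and 149 (0.682%) below the WT level in the knockout, and 24.7% of genes had no overlap between the genotypes. By edgeR, Mfsd13a alone passed among the 6.

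Psd (ENSMUSG00000037126, 46312087 to 46327156, minus strand) encodes EFA6A, an exchange factor that loads the small GTPase Arf6 with GTP. It is the gene next to Nfkb2 on the side of higher coordinates, and the ends of both genes meet tail to tail. Psd mRNA was 26.3, 19.5 and 35.2 CPM in WT libraries and 10.1, 4.52 and 5.22 CPM in Nfkb2-/- libraries, without overlap. The mean fell from 27.0 ± 7.91 to 6.62 ± 3.06 CPM (SD, n = 3 each), a log2 difference of -2.03 (SE 0.37) that missed the threshold (adjusted p = 0.0541). DESeq2, which called 8.60% of all genes, gave an adjusted p of 7.72e-06 for the same difference, and limma voom, which called 2.23%, gave 0.0310. Over 14 alternative fits the adjusted p ranged from 3.92e-11 to 0.222, past the threshold in 6.

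The last exons of Psd and Nfkb2 share 299 bases on opposite strands, so that reads there cannot be assigned without strand, and the use of strand in counting is not given in the sources used here. Of the 50-base stretches of Psd transcripts, 3.12% also occur in Nfkb2 and none in a further gene. Psd reads equaled 12.2%, 12.7% and 9.93% of the Nfkb2 reads in WT libraries and 22.6%, 14.0% and 16.0% in Nfkb2-/- libraries. The ratio was thus higher in all 3 knockout libraries, and how many Psd reads lay in the shared bases was not tested.

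Mfsd13a (ENSMUSG00000025227, 46341121 to 46375252, plus strand, 28.7 kb from Nfkb2) encodes a membrane protein of the major facilitator superfamily. Its mRNA was 9.46, 9.91 and 8.23 CPM in WT libraries and 3.96, 3.56 and 4.77 CPM in Nfkb2-/- libraries. Every WT library lay above every knockout library, and the mean fell 2.24-fold, from 9.20 ± 0.872 to 4.10 ± 0.617 CPM (log2 fold change -1.16, SE 0.20, adjusted p = 0.0481). The call stood close to the threshold, and among the other scalings and the fits with 1 library left out it was lost with library totals in place of TMM (adjusted p = 0.0825) and without WT replicate 1 or any of the 3 Nfkb2-/- replicates (highest adjusted p = 0.246). Over 14 alternatives the log2 fold change stayed between -1.29 and -1.09.

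Nolc1 (ENSMUSG00000015176, 46075863 to 46085530, plus strand, 219 kb from Nfkb2) encodes a nucleolar chaperone of small nucleolar ribonucleoproteins (snoRNPs). Its mRNA was 11.5, 15.3 and 11.7 CPM in WT libraries and 18.4, 21.2 and 21.3 CPM in Nfkb2-/- libraries. The genotypes did not overlap, with means of 12.8 ± 2.16 and 20.3 ± 1.66 CPM, but the log2 difference of 0.66 (SE 0.18) missed the threshold (adjusted p = 0.127).

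Gbf1 (ENSMUSG00000025224, 46152509 to 46286510, plus strand, 17.8 kb from Nfkb2) encodes the Golgi exchange factor for Arf1. It was the steadiest of the 10, at 72.2, 76.6 and 81.6 CPM in WT libraries and 76.9, 79.1 and 77.2 CPM in Nfkb2-/- libraries. The log2 fold change was 0.02 (SE 0.13, adjusted p = 0.961), and its sign turned in 5 of 14 alternatives, within -0.06 to 0.11.

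Cuedc2 (ENSMUSG00000036748, 46329812 to 46338702, minus strand, 17.4 kb from Nfkb2) encodes a ubiquitin-binding protein known to restrain the IkB kinase. Its mRNA was 16.2, 16.3 and 19.6 CPM in WT libraries and 10.4, 17.6 and 17.8 CPM in Nfkb2-/- libraries. Knockout replicate 1 lay below the other 5 libraries, which overlapped (log2 fold change -0.18, SE 0.24, adjusted p = 0.735; 0.02 without that library). Fbxl15 (ENSMUSG00000025226, 46328184 to 46330446, plus strand, 15.8 kb from Nfkb2), the F-box subunit that directs an SCF ubiquitin ligase to Smurf1, was near the lower end of detection. It had 10 to 36 counts in a library, or 0.344 to 0.498 CPM in WT and 0.396 to 1.06 CPM in Nfkb2-/- libraries, and only knockout replicate 1 exceeded the WT range. Its log2 fold change was 0.58 (SE 0.65, adjusted p = 0.688) with all libraries and -0.02 without knockout replicate 1. Fbxl15 and Cuedc2 share 345 exonic bases on opposite strands, and 22.3% of the 50-base stretches of Fbxl15 also occur in Cuedc2, so the low Fbxl15 counts are uncertain.

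**Figure D1:**
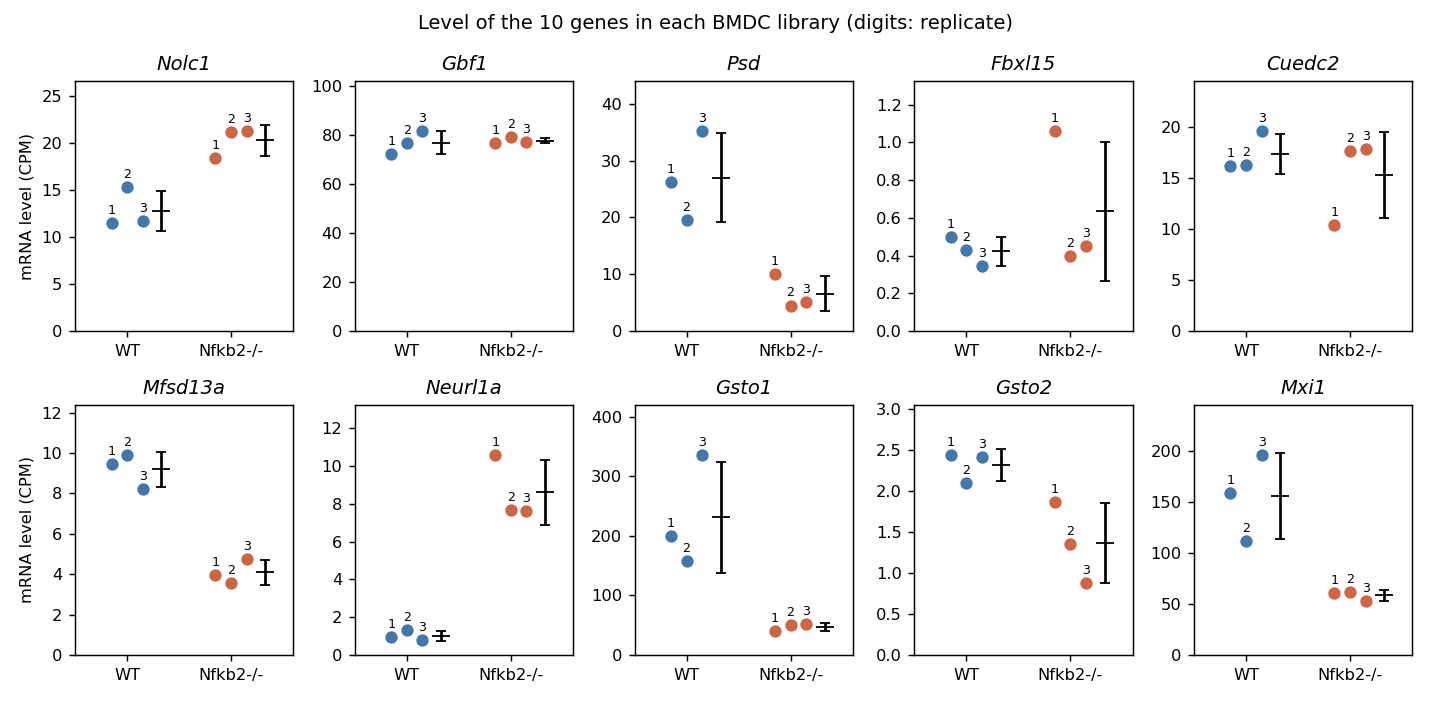
mRNA level in CPM (vertical axes, linear and starting at 0, each with its own range) of the 10 genes in every WT (blue) and Nfkb2-/- (orange) library; digits give the replicate and the bars the mean ± SD of 3 libraries. The genotypes separate for Nolc1, Psd, Mfsd13a, Neurl1a, Gsto1, Gsto2 and Mxi1, and they overlap for Gbf1, Fbxl15 and Cuedc2.

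The 4 more distant genes differed in size and direction. Neurl1a was higher in Nfkb2-/- BMDCs, and Gsto1, Mxi1 and Gsto2 were lower. In none of them did a WT library overlap a knockout library, and all but Gsto2 were called, which is how they came to be chosen.

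Neurl1a (ENSMUSG00000006435, 47178820 to 47259441, plus strand, 866 kb from Nfkb2) encodes Neuralized, a ubiquitin ligase known for the endocytosis of Notch ligands. Its mRNA was 0.949, 1.32 and 0.792 CPM in WT libraries and 10.6, 7.65 and 7.60 CPM in Nfkb2-/- libraries. These correspond to 23 to 43 counts in WT libraries and 232 to 406 in knockout libraries, an 8.40-fold higher level (log2 fold change 3.07, SE 0.28). Knockout replicate 1 was the highest library, and without it the log2 fold change was 2.89. A transcript on the same strand, AC132288.2, shares 690 exonic bases with Neurl1a, and 9.34% of the 50-base stretches of Neurl1a occur in another gene. AC132288.2 had 18, 10 and 9 counts in WT libraries, where Neurl1a had 40, 43 and 23, and 37, 20 and 29 counts in Nfkb2-/- libraries. How many Neurl1a reads lay in the shared bases was not tested.

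Gsto1 (ENSMUSG00000025068, 47854970 to 47864790, plus strand, 1543 kb from Nfkb2) encodes an omega-class glutathione transferase, a thiol-dependent reductase. Its mRNA was 199, 158 and 336 CPM in WT libraries and 39.9, 50.3 and 51.3 CPM in Nfkb2-/- libraries. The knockout level was 4.89-fold lower (log2 fold change -2.29, SE 0.30). WT libraries spread over a 2.12-fold range and knockout libraries over a 1.28-fold range, and without WT replicate 3, the highest, the log2 fold change was -1.92.

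Gsto2 (ENSMUSG00000025069, 47865534 to 47886324, plus strand), the adjacent gene for the other omega-class enzyme, which reduces dehydroascorbate, was far less abundant. Its mRNA was 2.44, 2.09 and 2.41 CPM in WT libraries and 1.86, 1.35 and 0.879 CPM in Nfkb2-/- libraries. The log2 fold change was -0.77 (SE 0.35), smaller than that of Gsto1. Gsto2 reads equaled 1.23%, 1.32% and 0.717% of the Gsto1 reads in WT libraries and 4.66%, 2.69% and 1.71% in Nfkb2-/- libraries, higher in every knockout library. Gsto1 was chosen because it changed, so the higher ratio follows in part from that choice. The transcripts of Gsto1 and Gsto2 have no 50-base stretch in common. Both genes lie inside Cfap43 on the opposite strand and share 0 exonic bases with it.

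Mxi1 (ENSMUSG00000025025, 53310518 to 53375810, plus strand, 6998 kb from Nfkb2) encodes a Max partner that opposes Myc at E-boxes. Its mRNA was 159, 112 and 196 CPM in WT libraries and 60.2, 61.9 and 52.5 CPM in Nfkb2-/- libraries. The knockout level was 2.68-fold lower (log2 fold change -1.42, SE 0.22) and varied little, with a coefficient of variation of 8.55% against 27.3% in WT libraries.

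**Figure D2:**
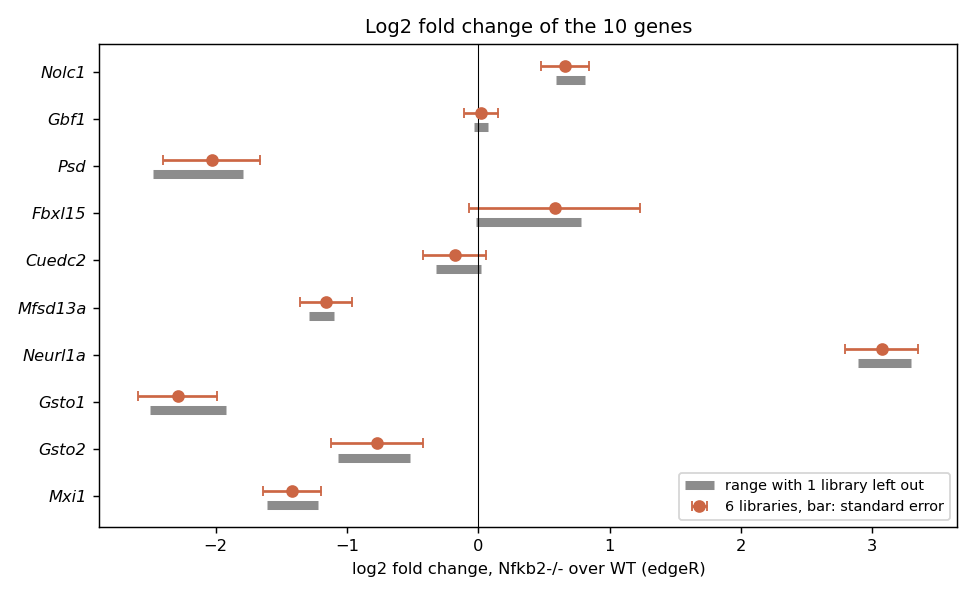
Log2 fold change of each of the 10 genes, Nfkb2-/- over WT, from edgeR (points, bar: standard error, 6 libraries) and the range of the same value when each of the 6 libraries is left out in turn (gray). The range crosses 0 for Gbf1, Fbxl15 and Cuedc2, and for the other 7 genes it stays on one side of 0.

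Per kilobase of exon, Gsto1 was the most abundant of the 10 mRNAs and Mxi1 the next in all 6 libraries. Gsto1 ranged from 78.2 to 166 CPM per kilobase in WT and from 19.7 to 25.4 in Nfkb2-/- libraries, and Mxi1 from 16.4 to 28.8 and from 7.70 to 9.07. Gbf1 and Cuedc2 followed, and they did not differ beyond their spread, at 6.65 to 7.52 for Gbf1 and 6.89 to 8.30 for Cuedc2 in WT libraries. Nolc1, Psd and Mfsd13a overlapped in WT libraries between 2.55 and 4.62 CPM per kilobase. In Nfkb2-/- libraries Nolc1 stood at 4.63 to 5.38, within the Cuedc2 range of 4.42 to 7.56, Mfsd13a at 1.27 to 1.70 and Psd at 0.591 to 1.33. Neurl1a was the lowest of the 10 in WT libraries, at 0.109 to 0.182 CPM per kilobase, and in Nfkb2-/- libraries, at 1.04 to 1.45, it overlapped with Mfsd13a and Psd. Gsto2 was at 0.891 to 1.04 in WT libraries and 0.374 to 0.792 in Nfkb2-/- libraries. Fbxl15 was at 0.255 to 0.370 and 0.293 to 0.789, so that these genes overlapped in knockout libraries.

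The set drawn by position alone asked whether mRNA levels around Nfkb2 differed more often than elsewhere. Within 0.5 Mb of Nfkb2 there were 35 genes in the files besides Nfkb2, and 29 passed the filter on low counts. One was called, Mfsd13a, which is 3.45% of 29 against 1.14% of all genes. The libraries of 9 genes (31.0%) did not overlap between the genotypes, against 24.7% of all genes, and 6 (20.7%) had an unadjusted p under 0.05, against 17.1%. The median log2 fold change of the 29 was -0.13, with 17 negative and 12 positive, against a median of 0.08 over all genes. Among the 19 with at least 5 CPM, 9 (47.4%) did not overlap, against 33.7% of all genes at that level.

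Besides Psd, Mfsd13a and Nolc1, the genes without overlap were Ldb1, Pprc1, Sufu, Borcs7, As3mt and Cnnm2, and by edgeR no one of them passed the threshold. DESeq2 called Cnnm2 and Pprc1, and edgeR without the filter on low counts called Cnnm2. Cnnm2, which encodes a membrane protein of magnesium homeostasis, had the largest difference of these, at 20.6, 15.7 and 19.8 CPM in WT libraries and 13.0, 8.01 and 8.70 CPM in Nfkb2-/- libraries (log2 fold change -0.91, SE 0.23, adjusted p = 0.115). Pprc1, a coactivator related to PGC-1 that lies beside Nolc1, had a log2 fold change of 0.62 (adjusted p = 0.128), close to that of Nolc1. Ldb1, an adaptor of LIM domain transcription factors, was at -0.45 (adjusted p = 0.308) and Sufu, the inhibitor of Gli factors in Hedgehog signaling, at -0.39 (adjusted p = 0.236). AC114539.1, annotated as a noncoding RNA of a bidirectional promoter, overlaps the first exons of Nfkb2 by 531 exonic bases on the opposite strand and was the nearest gene on the side of lower coordinates. Its levels overlapped, with means of 8.72 ± 2.74 CPM in WT and 8.72 ± 3.53 CPM in Nfkb2-/- libraries (log2 fold change 0.00, SE 0.34, adjusted p = 0.999). Without strand, reads in the bases that AC114539.1 shares with Nfkb2 cannot be assigned. In the order of the chromosome, Gbf1 and AC114539.1 on one side of Nfkb2 and Cuedc2 between Psd and Mfsd13a had overlapping libraries, while Psd and Mfsd13a did not. Farther out, Armh3 and Hps6 on the lower side had overlapping libraries, while Nolc1, Pprc1 and Ldb1 did not. Beyond Mfsd13a, Actr1a and Trim8 had overlapping libraries, while Sufu, Borcs7, As3mt and Cnnm2 did not.

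**Figure D3:**
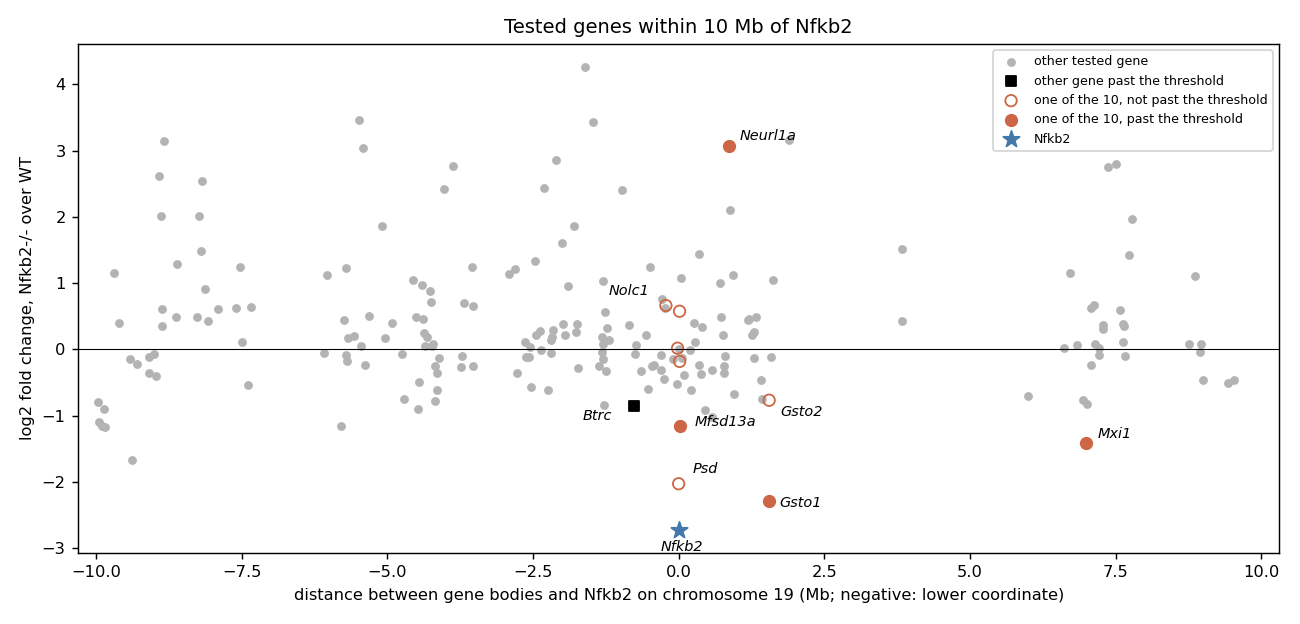
Log2 fold change, Nfkb2-/- over WT (vertical axis), of the 214 tested genes within 10 Mb of Nfkb2 against the distance between gene bodies in Mb (horizontal axis); filled orange points are those of the 10 genes past the threshold, open orange points the others of the 10, the black square is Btrc and the star Nfkb2. Genes past the threshold lie at 28.7, 774, 866, 1543 and 6998 kb, among many that did not pass.

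Within 10 Mb of Nfkb2, 214 genes were tested and 5 were called (2.34%), of which 4 were lower and 1 higher. Mfsd13a, Neurl1a, Gsto1 and Mxi1 make up 4 of the 5, and among the 204 tested genes of the window that are not one of the 10, 1 was called (0.490%). This last share is lowered by the choice itself, since Neurl1a, Gsto1 and Mxi1 were chosen as called genes and are left out of it. The 1 called gene outside the 10 was Btrc (ENSMUSG00000025217, 45363734 to 45530013), which encodes the F-box protein beta-TrCP, known for the recognition of phosphorylated IkB and p100. Btrc was 35.9, 33.3 and 34.3 CPM in WT libraries and 19.1, 18.5 and 19.9 CPM in Nfkb2-/- libraries. The spread within each genotype was small, and the log2 fold change was -0.85 (SE 0.13, adjusted p = 0.0420). Btrc was called in 8 of 14 alternative fits. With 1 library left out it was called in 2 of 6 fits (highest adjusted p = 0.240). The 2 genes of the window that came nearest to the threshold without passing were Psd and AC122442.1, a noncoding RNA at 0.569 Mb (log2 fold change -1.03, adjusted p = 0.0558).

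Elsewhere on chromosome 19, 5 of 506 tested genes were called (0.988%), and on the other chromosomes 237 of 21128 (1.12%). The called share within 1 Mb was 6.12% (3 of 49), within 5 Mb 3.01% (4 of 133) and within 20 Mb 2.40% (8 of 333). Between 2 and 5 Mb, 0 of 50 genes were called by edgeR, with 8 at an unadjusted p under 0.05, 1 by DESeq2 and 0 by limma voom. Just outside the window of 10 Mb, the nearest called gene was Atrnl1 at 11.3 Mb, which encodes an attractin-like membrane protein. It was 311, 259 and 350 CPM in WT libraries and 83.2, 123 and 119 CPM in Nfkb2-/- libraries (log2 fold change -1.50, SE 0.21, adjusted p = 0.0348). The next were the noncoding AC140469.1 at 11.8 Mb and Glis3 at 17.6 Mb on the other side, both lower in Nfkb2-/- libraries. AC140469.1 lies inside Atrnl1 on the opposite strand, and both are counted in the 8 within 20 Mb. Whether their reads are separate was not tested, since the use of strand in counting is not given. Chromosome 19 as a whole, with 10 of 720 genes called (1.39%), ranked 7 among 20 chromosomes by the called share. These shares rest on few called genes. The windows took every tested gene by position, whether or not it changed, and their counts include genes of the 10 that had been chosen because they changed.

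The families to which the 10 proteins belong were then counted, from lists that include genes whether or not they changed. Over the 7 lists with 116 tested genes, 5 were called by edgeR, namely Neurl1a, Gsto1, Mxi1, Nfkb2 and Jag1, against 1.14% of all genes. Of these, Neurl1a, Gsto1 and Mxi1 had been chosen because they were called and Nfkb2 is the targeted gene. Jag1 was the remaining call, from a list drawn up with earlier results of these data known. By edgeR no other gene of the lists passed the threshold, and DESeq2 called 24 and limma voom 8. Over all genes DESeq2 called 8.60% and limma voom 2.23%, the shares that stand beside their calls in each list below.

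Among 20 tested Arf GTPases and exchange factors, to which Gbf1 and Psd belong, 0 were called by edgeR, with 5 at an unadjusted p under 0.05 and a median log2 fold change of -0.02. DESeq2 called 3, namely Psd, Psd3 and Iqsec2, and limma voom called Psd and Psd3. Psd3, a relative of Psd on chromosome 8, was 193, 132 and 217 CPM in WT libraries and 74.7, 86.5 and 85.5 CPM in Nfkb2-/- libraries. Like Psd it did not overlap and missed the threshold narrowly (log2 fold change -1.14, SE 0.21, adjusted p = 0.0548). Arf6, the substrate of Psd, and Arf1, the substrate of Gbf1, had log2 fold changes of 0.17 (adjusted p = 0.608) and 0.15 (adjusted p = 0.661). Cyth1 was the other of the 3 most abundant per kilobase.

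Among 18 F-box, SCF core and BMP pathway genes, the list of Fbxl15, 0 were called by edgeR, with 5 at an unadjusted p under 0.05 and a median log2 fold change of -0.23, and DESeq2 called 1 and limma voom 0. Smurf1, the target of Fbxl15, had a log2 fold change of -0.59 (SE 0.22, adjusted p = 0.235). The most abundant per kilobase were Skp1a and Cul1. Of the 20 snoRNP and ribosome biogenesis genes, the list of Nolc1, 0 were called by edgeR, but 10 had an unadjusted p under 0.05, and DESeq2 called 10, Nolc1 among them, and limma voom 0. The libraries of 13 (65.0%) did not overlap, against 24.7% of all genes, and the median log2 fold change was 0.60 against 0.08. Among all genes with at least 5 CPM, a level that every gene of this list reached, 33.7% did not overlap and the median was -0.02. Dkc1, the pseudouridine synthase, was at 1.08 (SE 0.33, adjusted p = 0.167), Nop58 at 1.07 (SE 0.30, adjusted p = 0.139) and Fbl, the methyltransferase, at 0.91 (SE 0.27, adjusted p = 0.147). Npm1, Pes1 and Nop10 were the most abundant per kilobase, with Npm1 at 0.13. Nolc1, at 0.66, thus lay near the median of this list.

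The Myc, Max and Mxd network, with 13 tested genes and a median log2 fold change of 0.36, had 1 called gene by edgeR, Mxi1, 3 by DESeq2 (Mxi1, Mxd1 and Mycl) and 2 by limma voom (Mxi1 and Mycl). In this list 8 genes (61.5%) had no overlap, against 24.7% of all genes, and 8 had an unadjusted p under 0.05 by edgeR. Mycl was 23.2, 23.8 and 42.9 CPM in WT libraries and 63.7, 74.3 and 69.8 CPM in Nfkb2-/- libraries, without overlap (log2 fold change 1.21, adjusted p = 0.0787). Mxd1, which also partners Max against Myc, was 272, 168 and 390 CPM in WT libraries and 117, 156 and 141 CPM in Nfkb2-/- libraries (log2 fold change -1.01, SE 0.30, adjusted p = 0.155). Max was at 0.36 (adjusted p = 0.290) and Myc at 0.55 (SE 0.69, adjusted p = 0.726), with Myc libraries from 3.13 to 34.7 CPM in WT BMDCs alone. Mxd1, Mlxip and Mga were the most abundant per kilobase.

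Of 25 glutathione transferase genes 19 were tested, with a median log2 fold change of 0.00. By edgeR, DESeq2 and limma voom alike 1 was called, Gsto1, which was also the most abundant per kilobase. The next, Gstm1 and Mgst1, had overlapping libraries and log2 fold changes of -0.24 (adjusted p = 0.744) and -0.36 (adjusted p = 0.667). In this list 5 genes (26.3%) had no overlap, against 24.7% of all genes, and 3 had an unadjusted p under 0.05 by edgeR. Besides Gsto1 and Gsto2, those without overlap were Gstm4 (0.34), Gstcd (0.56) and Mgst3 (0.67), all higher in Nfkb2-/- libraries.

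Among 12 Neuralized and Mindbomb ligases and Notch ligands, Neurl1a was higher and Jag1 lower in Nfkb2-/- libraries, and the median log2 fold change was 0.03. These 2 genes were the calls by edgeR, DESeq2 and limma voom alike. Jag1, a Notch ligand on chromosome 2, fell from 26.6 ± 3.34 to 8.19 ± 1.43 CPM (log2 fold change -1.70, SE 0.20, adjusted p = 0.0277). The related ligases Neurl1b at 0.52 (adjusted p = 0.529), Neurl3 at -0.08 (adjusted p = 0.888) and Neurl4 at -0.14 (adjusted p = 0.723) had overlapping libraries, and the most abundant of the list per kilobase were Mib1, Neurl3 and Neurl4. Of 14 NF-kB subunits, inhibitors and kinases, edgeR and limma voom called Nfkb2, DESeq2 called Nfkb2, Nfkbia, Nfkbib and Rel, and the median log2 fold change was -0.49. By edgeR, Rel was at -0.55 (adjusted p = 0.203), Nfkbia, the inhibitor IkB-alpha, at -1.01 (adjusted p = 0.117) and Map3k14, the kinase NIK, at -0.57 (adjusted p = 0.413).

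**Figure D4:**
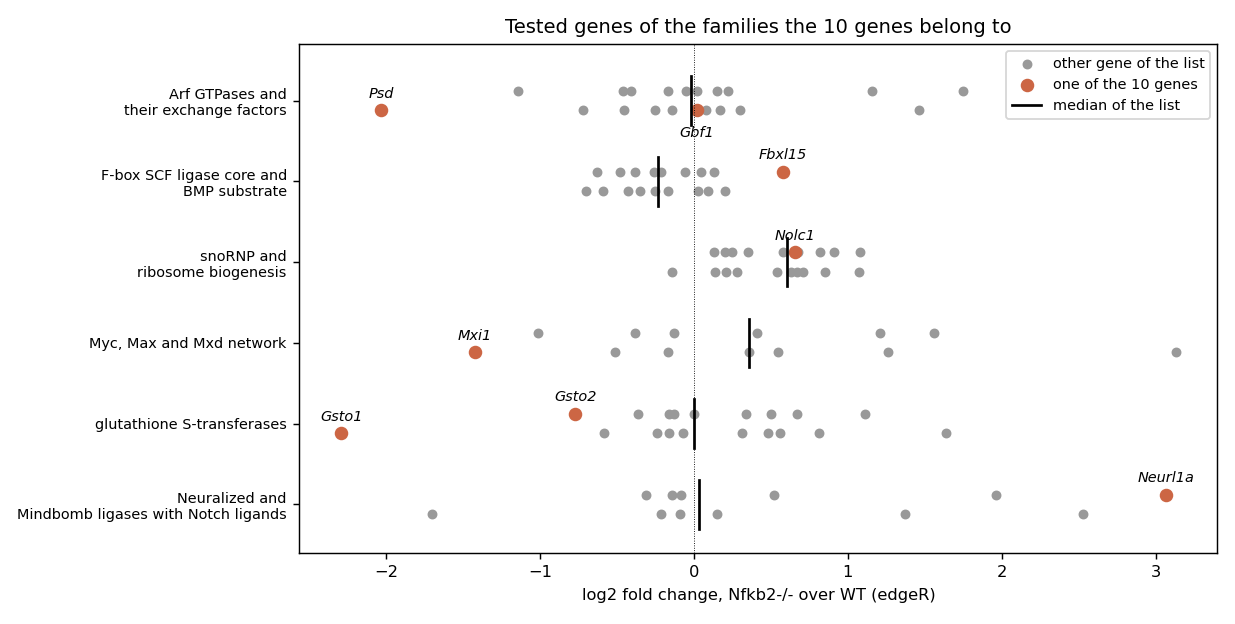
Log2 fold change, Nfkb2-/- over WT (edgeR, horizontal axis), of every tested gene in 6 family lists (rows); orange points are the 10 genes, gray points the other genes of a list and black lines the median of a list. Psd, Mxi1 and Gsto1 have the lowest and Neurl1a the highest value of their lists, and Nolc1 lies near the median of its list. Mxi1, Gsto1 and Neurl1a were chosen because they changed, so their place at the end of a list is no separate result.

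Composition of the cultures was read from markers, since in bulk RNA a change in the cells present and a change per cell cannot be told apart. All 15 markers of mature and migratory DCs were at 1 CPM or more, and Ccl22, Cd74 and H2-Aa led. Their summed level was 13887 to 26252 CPM in WT and 17707 to 18168 CPM in Nfkb2-/- libraries, with a list median log2 fold change of -0.17. By edgeR and limma voom, Itgax (1.99) and Ccl17 (2.92) were called higher and none lower, and DESeq2 called Fscn1 (-1.49) and Cd83 (-1.12) lower as well. Zbtb46 (-0.54, adjusted p = 0.192) and Cd86 (0.58, adjusted p = 0.284) were also without overlap, the former lower and the latter higher in Nfkb2-/- libraries. WT libraries ordered by this sum as replicates 2, 1 and 3, and Psd, Gsto1, Mxi1 and Nfkb2 had that order in WT libraries, as did 23.7% of all genes. Macrophage and monocyte markers, 12 of 12 at 1 CPM or more and led by Csf1r, C1qb and Adgre1, summed to 880, 999 and 149 CPM in WT and 549 to 688 CPM in Nfkb2-/- libraries, so WT replicate 3, which held the highest Psd, Gsto1 and Mxi1 levels, had the lowest macrophage sum. Neutrophil markers, 7 of 11 at 1 CPM or more and led by S100a8, Ngp and S100a9, summed to 87.4 to 247 and 123 to 130 CPM. Mast cell and basophil markers, 2 of 10 at that level and led by Cpa3, Gata2 and Ms4a2, summed to 10.1 to 16.3 and 7.38 to 10.4 CPM, with Cpa3 (log2 fold change -1.84) called lower. Other markers of that list differed in sign. Gata2 at 1.47 (adjusted p = 0.119, called higher by DESeq2) and Hdc at 1.72 (adjusted p = 0.341) were higher, both without overlap. Mcpt8 (-1.26) and Ms4a2 (-1.14), both without overlap, and Cma1 (-1.05) and Prss34 (-0.92) were lower but not called. The median log2 fold change of this list was -1.05. Of the macrophage and neutrophil markers, edgeR called 0, with 1 and 4 at an unadjusted p under 0.05, and DESeq2 called 1 and 3 and limma voom 0. These DESeq2 calls were Apoe, and Csf3r, Ltf and Ngp, with edgeR log2 fold changes of -5.21, -1.79, -1.60 and -1.81. Apoe was without overlap, at 82.3, 56.5 and 3.68 CPM in WT and 0.725 to 2.25 CPM in Nfkb2-/- libraries. The list medians were -0.08 for macrophage and -0.51 for neutrophil markers. T and NK cell markers (1 of 9, led by Cd8a, Lck and Cd4) summed to at most 8.45 CPM, B cell markers (0 of 6, led by Ebf1 and Pax5) to at most 7.12 CPM and erythroid markers (1 of 7, Alas2) to at most 5.37 CPM in any library, and none of these passed the threshold by edgeR, DESeq2 or limma voom or had an unadjusted p under 0.05. The part of these shifts in the levels of the 10 genes was not tested.

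Library depth ran from 29863927 to 55623068 counts, so that 1 count was 0.018 to 0.0335 CPM. Counts fell on 27692 to 33841 genes in 5 libraries and on 47952 in Nfkb2-/- replicate 1, which also had the highest sums of T and NK cell and B cell markers. Of the 10 genes, Fbxl15 and Neurl1a were highest in that library. Without it the log2 fold changes of the 10 kept their sign, except for Fbxl15 and Cuedc2.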

How the data were processed

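RNA was sequenced from unstimulated WT and global Nfkb2-/- BMDCs, 3 libraries per genotype, grouped by the sample labels. The methods call the libraries independent biological replicates. The authors deposited raw counts per Ensembl gene and library, not normalized. The submitters' processing notes name HISAT2, GRCm38 and mm10, whereas the counting tool, annotation and use of strand are not given in the sources used here. A joined table was not used.

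The 21849 genes kept have a name in GENCODE M21 and sum to 50 counts or more in all 6 libraries together, and IDs without a name (1.01% to 1.75% of counts) were left out. Genotypes were compared with edgeR 4.0.16 in R 4.3.3 (TMM, glmQLFit and glmQLFTest, no covariates, common dispersion 0.219), and p-values were adjusted by the Benjamini-Hochberg method over all genes. DESeq2 1.42.0 and limma 3.58.1 (voom) were alternatives, as were other scalings, filters, windows, a replicate block and leaving out each library. The standard error is the log2 fold change divided by the square root of F. Distances are gaps between gene bodies in GENCODE M21.

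The 10 genes, both kinds of gene list and the naming rule were chosen with earlier results of these data known. Named are the 10 genes, Nfkb2, genes past the threshold within 10 Mb, the nearest gene on each side, genes within 0.5 Mb without overlap, the nearest called gene beyond 10 Mb, the 2 uncalled genes of the window with the smallest p, and the called and 3 most abundant genes of each list, some of which are not reported here. AC140469.1, Glis3 and further list members were named after their values were seen. WT replicate 2 and Nfkb2-/- replicate 2 have totals that differ by 15 counts, but 31533 genes differ between them.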

Additional observations from a re-analysis of the deposited data

How the results depend on the processing

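Counts of called genes depended on the tool and filter. Over all genes, within 10 Mb of Nfkb2, within 0.5 Mb and in the family lists, edgeR called 248, 5, 1 and 5. DESeq2 called 1878, 26, 5 and 24 and limma voom 488, 10, 2 and 8. The filterByExpr filter gave 397, 10, 2 and 7, a filter of at least 10 counts in every library 459, 11, 2 and 8, and no filter beyond 1 count in any library 1625, 24, 3 and 15. RLE size factors gave 239, 5, 1 and 5, and library totals without TMM 247, 5, 0 and 7, the lost call being Mfsd13a. Windows of 1, 5 and 20 Mb held 3, 4 and 8 called genes. With 1 library left out, the counts ranged from 0 to 1248 over all genes, from 0 to 18 within 10 Mb, from 0 to 3 within 0.5 Mb and from 0 to 13 in the family lists. They were 0 without WT replicate 1 or any Nfkb2-/- replicate, when 2325 (WT replicate 1), 4088, 2580 and 2726 (Nfkb2-/- replicates 1, 2 and 3) genes still had an unadjusted p under 0.05, and highest without WT replicate 2. With a replicate block, edgeR called 0, 0, 0 and 0 genes (Mfsd13a at an adjusted p of 0.108), and 3331 had an unadjusted p under 0.05. Same-numbered WT and Nfkb2-/- replicates deviated together with r of 0.262, 0.148 and 0.0224 for replicates 1, 2 and 3, and 4 of 6 libraries correlated best with their own number, a hint from the data and not the design, so the numbers were not taken as pairs, and the cause of the lost calls was not tested. Of 140 log2 fold changes of the 10 genes under alternatives, 137 moved by less than the spread between replicates and none that was called changed sign. Those that moved were Gbf1 with library totals (0.11) and without the filter (-0.06), and Fbxl15 without Nfkb2-/- replicate 1 (-0.02). Fbxl15, at 10 to 36 counts, is limited by depth.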
